A study of Mus musculus with 16 samples.

Results

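The 10 genes described here encode the receptor complex that senses lipopolysaccharide (LPS), a cell wall component of Gram-negative bacteria, and the proteins that act next to it: Cd14, Tlr4, Ly96, Tirap, Myd88, Ticam2, Ticam1, Irak4, Irak2 and Irak3. They were taken by gene symbol from a table of 22287 genes, and the choice was made with earlier results of these data known. All 10 were among the 12514 genes that passed the filter on low counts. The libraries came from bone marrow derived macrophages (BMDMs) of C57BL/6J mice aged 8 weeks, cultured for 7 days and then given vehicle (steady state) or 100 ng/ml LPS for 3 h. GM groups received 20 ng/ml GM-CSF and M groups 50 ng/ml M-CSF, either on tissue culture (TC) dishes or on noTC dishes, to which cells anchor less firmly. The 8 groups (GM-TC and GM-noTC, M-TC and M-noTC, and the same 4 with LPS added to the name) had 2 libraries each (n = 2 for every group value below). The GM and M cultures also differed in the dose of growth factor and in seeding density, so that the growth factor cannot be told apart from these.

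LPS is handed by CD14 to TLR4 and its partner MD-2, the product of Ly96, which holds the lipid. At the plasma membrane TIRAP brings MYD88 to the receptor, and MYD88 assembles IRAK4 and IRAK2 into a complex that leads to NF-kB and MAP kinases, while IRAK3 (IRAK-M) acts as a brake. After endocytosis, which CD14 promotes, TRAM (Ticam2) and TRIF (Ticam1) carry the signal towards interferon regulatory factors. Macrophages of all kinds use this pathway, and several of its components are themselves under the control of LPS.

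Sequence upstream of the start of transcription is shown for Myd88 and Irak2. Both rose in all 4 comparisons with LPS, and more in M than in GM cells on both dishes. The same held, with smaller changes, for Tirap, whose sequence was searched but is not shown. The RefSeq table for GRCm38.p6 had entries for 6 of the 10 genes. Both stretches are the 250 bases before the annotated start, written 5′ to 3′ along the gene, Myd88 from chr9:119340019-119340268 (minus strand) and Irak2 from chr6:113638217-113638466 (plus strand), and capitals mark a match to the interferon-stimulated response element (ISRE, searched as GAAA, any 2 bases, GAAA).
Myd88: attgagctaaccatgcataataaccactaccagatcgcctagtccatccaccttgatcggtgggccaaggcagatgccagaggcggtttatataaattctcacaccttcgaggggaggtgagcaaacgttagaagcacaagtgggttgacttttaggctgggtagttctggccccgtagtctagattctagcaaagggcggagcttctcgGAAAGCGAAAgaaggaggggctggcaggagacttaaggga
Irak2: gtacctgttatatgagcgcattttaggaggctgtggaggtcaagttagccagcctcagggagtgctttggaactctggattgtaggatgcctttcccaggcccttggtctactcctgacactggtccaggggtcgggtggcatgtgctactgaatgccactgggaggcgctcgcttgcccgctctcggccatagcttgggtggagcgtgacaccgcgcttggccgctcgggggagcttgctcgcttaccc
The motifs searched, on both strands of the 250 bases of each entry, were the ISRE, AP-1 (TGANTCA), the PU.1 site (GAGGAAGT) and the NF-kB consensus. The match in Myd88, at bases -40 to -31 from the start, was the only one in the 8 entries of the 6 genes. Of 32536 promoters of the same length, 2.98% held the ISRE, 6.73% AP-1, 2.45% the PU.1 site and 7.28% the NF-kB consensus. A match of letters is a description of the sequence and does not show that a factor binds there.

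Total counts per library lay between 17527802 and 31458363, and the 10 genes had between 98 counts (Ly96) and 44372 counts (Cd14) in a library. Levels below are CPM (counts scaled to the same library total, with TMM factors), and differences are log2 fold changes ± standard error (SE) from 1 edgeR fit over the 16 libraries, called at a Benjamini-Hochberg (BH) adjusted p under 0.05. TMM factors were 1.11 to 1.39 in vehicle and 0.778 to 0.842 in LPS libraries. Scaling by library size alone moved the median log2 fold change of all genes upon LPS challenge to -0.53 (GM-TC), -0.54 (GM-noTC), -0.83 (M-TC) and -0.73 (M-noTC), and that of GM against M at steady state to -0.29 on both dishes. Changes below are therefore relative to the median gene, and a direction that turns under library size is given as such. Macrophage markers were high in every library (8 genes, 18057 to 45437 CPM by library size in sum, none at 0). The 9 neutrophil markers summed to 14.9 to 35.6 CPM in GM libraries and to 0.452 to 1.81 CPM in M libraries, where Ly6g, Mpo and Elane were at 0. The 6 dendritic markers summed to 16.2 to 58.5 CPM in GM and 1.12 to 3.37 CPM in M libraries. Ccr7 made up most of the GM sum, with group means of 10.1 to 48.7 CPM. Siglech went the other way, at most 0.0285 CPM in GM and 0.0617 to 0.244 CPM in M groups. Xcr1 had 1.68 CPM in both GM-TC-LPS and M-TC-LPS. The 5 heart muscle markers summed to between 19.96 and 71.6 CPM in GM-TC and M-TC and to at most 0.633 CPM in all others. In bulk RNA, fewer cells of a type and less RNA per cell cannot be told apart.

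**Figure D1:**
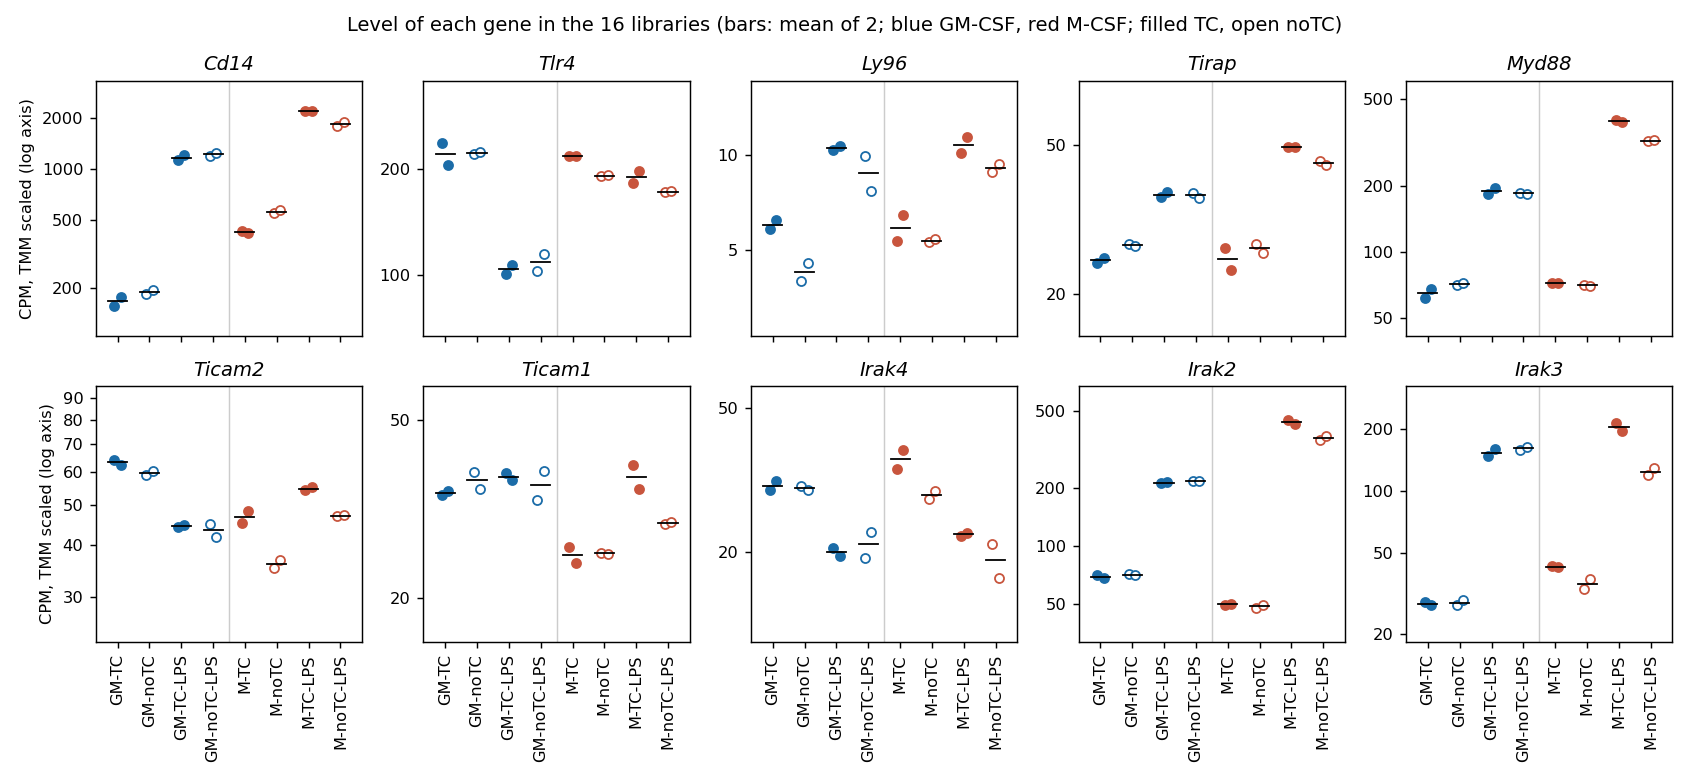
CPM of each of the 10 genes (log axes, a scale of its own for each gene) in the 8 groups, with a point for each of the 2 libraries and a bar at their mean; blue is GM-CSF, red M-CSF, filled TC and open noTC. Cd14, Myd88, Irak2 and Irak3 are higher in every LPS library than in every vehicle library, and the LPS libraries of the GM groups have the lowest Tlr4 values (101 to 115 CPM).

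Per kilobase of exons (lengths from GENCODE M21, which may not be the annotation of the counts), Cd14 was the most abundant of the 10 in every group, from 95.9 CPM per kb in GM-TC to 1258 CPM per kb in M-TC-LPS. At steady state Tlr4 (34.6 to 40.1 CPM per kb) and Myd88 (25.1 to 28.0 CPM per kb) came next. Irak2 (15.7, 16.1 and 11.0 CPM per kb) followed in GM-TC, GM-noTC and M-noTC, and in M-TC Irak3 (11.6 CPM per kb) lay just above Irak2 (11.3 CPM per kb). Ly96, Tirap and Irak4 lay lowest in GM-TC, at 5.88, 4.99 and 6.07 CPM per kb. The highest mean level was in M-TC-LPS for 6 genes (Cd14, Ly96, Tirap, Myd88, Irak2 and Irak3), in GM-TC for Ticam2, in M-TC for Irak4, in GM-noTC for Tlr4 and in GM-TC-LPS for Ticam1. Scaled by library size, Tlr4 was highest in M-TC and Ticam1 in GM-noTC. For Ticam1 the 5 highest groups overlapped, each with the next. In contrast, every step in the order of Cd14 was free of overlap, M-TC-LPS, M-noTC-LPS, the 2 GM-LPS groups, M-noTC, M-TC, GM-noTC and GM-TC, except between the 2 GM-LPS groups.

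Upon LPS challenge, most of the 10 genes changed in every background: Cd14, Myd88, Irak2 and Irak3 rose severalfold, whereas Tlr4 and the upstream kinase Irak4 fell. In all, 6 of 10 rose in both GM-TC and GM-noTC (Cd14, Ly96, Tirap, Myd88, Irak2 and Irak3) and 3 fell (Tlr4, Ticam2 and Irak4), where 32.8% and 33.6% of all tested genes rose and 34.2% and 34% fell. In M-TC and in M-noTC, 8 rose and 2 fell (Tlr4 and Irak4), where 37.6% and 36.4% of all genes rose and 36.4% and 35.9% fell. The median log2 fold change of the 10 was 0.70 (GM-TC), 0.74 (GM-noTC), 0.93 (M-TC) and 0.76 (M-noTC), against -0.05, -0.03, -0.01 and -0.01 for all tested genes. With library size scaling the split was 5 up and 4 down in GM-TC, GM-noTC and M-TC and 4 up and 4 down in M-noTC, where 16.1% to 17.2% of all genes rose and 62.7% to 69.1% fell. Under it Cd14, Myd88, Irak2 and Irak3 were still called in all 4 backgrounds, with rises from 0.87 (Myd88 in GM-noTC) to 2.33 (Cd14 in GM-TC). Heart muscle markers were high in the vehicle libraries alone in the comparisons on TC dishes, and their part in the result was not tested.

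Cd14, the receptor that captures LPS at the cell surface, had 156 and 177 CPM in GM-TC, 183 and 195 CPM in GM-noTC, 431 and 419.8 CPM in M-TC, and 547 and 569 CPM in M-noTC at steady state. Upon LPS challenge it reached 1124 and 1202 CPM in GM-TC-LPS, 1196 and 1242 CPM in GM-noTC-LPS, 2184 and 2175 CPM in M-TC-LPS, and 1784 and 1894 CPM in M-noTC-LPS. Every LPS library thus lay above every vehicle library, and within each state all M libraries lay above all GM libraries. The log2 fold change was 2.81 ± 0.061 in GM-TC (6.99-fold, adjusted p = 1.5e-20) and 2.69 ± 0.060 in GM-noTC (6.46-fold, adjusted p = 2.6e-20). It was 2.36 ± 0.059 in M-TC (5.12-fold, adjusted p = 1.1e-19) and 1.72 ± 0.058 in M-noTC (3.29-fold, adjusted p = 2.4e-17).

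Tlr4, the signaling receptor, had 238 and 205 CPM in GM-TC, 222 and 224 CPM in GM-noTC, 218 and 218 CPM in M-TC, and 192 and 192 CPM in M-noTC. With LPS it had 101 and 107 CPM in GM-TC-LPS, 103 and 115 CPM in GM-noTC-LPS, 183 and 197 CPM in M-TC-LPS, and 172 and 173 CPM in M-noTC-LPS. The GM libraries fell well below all others, while the M libraries lay below their vehicle counterparts by small steps without overlap within a dish. The change was -1.09 ± 0.067 in GM-TC (2.13-fold lower, adjusted p = 2.1e-12) and -1.04 ± 0.066 in GM-noTC (2.05-fold lower, adjusted p = 4.6e-12). In M cells it was -0.20 ± 0.065 on TC (adjusted p = 0.0081) and -0.15 ± 0.064 on noTC (adjusted p = 0.039). The fall in M-TC was no longer called without M-TC-LPS replicate 1 (adjusted p = 0.11). The fall in M-noTC was not called by DESeq2 (adjusted p = 0.06), with DESeq2's size factors (adjusted p = 0.051), or with any 1 of the 4 libraries left out (adjusted p = 0.11 to 0.15). By library size both falls were larger and called, at -1.03 in M-TC (adjusted p = 4.1e-12) and -0.88 in M-noTC (adjusted p = 5.9e-11), where the median gene moved by -0.83 and -0.73.

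Ly96, whose product binds the lipid part of LPS, was the least abundant gene by count. It had 5.81 and 6.20 CPM in GM-TC, 3.995 and 4.55 CPM in GM-noTC, 5.34 and 6.44 CPM in M-TC, and 5.29 and 5.41 CPM in M-noTC. With LPS the values were 10.4 and 10.7 CPM in GM-TC-LPS, 9.90 and 7.66 CPM in GM-noTC-LPS, 10.1 and 11.4 CPM in M-TC-LPS, and 8.83 and 9.38 CPM in M-noTC-LPS. All LPS libraries lay above all vehicle libraries. The rise lay between 0.77 ± 0.14 in M-noTC (adjusted p = 4e-05) and 1.03 ± 0.15 in GM-noTC (adjusted p = 2.5e-06). Scaled by library size, it was 0.33 in GM-TC (adjusted p = 0.04) and 0.53 in GM-noTC (adjusted p = 0.0029), the change in M-TC was 0.041 (adjusted p = 0.79) and in M-noTC 0.040 (adjusted p = 0.8), so that in M cells the call rested on the scaling.

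Myd88, the adaptor shared by most Toll-like receptors, had 61.8 and 67.5 CPM in GM-TC, 70.6 and 72.3 CPM in GM-noTC, 71.8 and 72.4 CPM in M-TC, and 70.8 and 70.2 CPM in M-noTC. With LPS it had 185 and 197 CPM in GM-TC-LPS, 186 and 185 CPM in GM-noTC-LPS, 404 and 393 CPM in M-TC-LPS, and 321 and 325 CPM in M-noTC-LPS. The steady state levels lay close together, and after LPS all M libraries exceeded all GM libraries. The rise was 1.56 ± 0.055 in GM-TC (2.95-fold, adjusted p = 9.3e-17), 1.38 ± 0.054 in GM-noTC (2.59-fold, adjusted p = 6.9e-16), 2.47 ± 0.055 in M-TC (5.52-fold, adjusted p = 1.3e-20) and 2.196 ± 0.054 in M-noTC (4.58-fold, adjusted p = 8.8e-20). Tirap, which bridges TLR4 and MYD88, moved less. Its vehicle libraries lay between 23.1 and 27.3 CPM in all 4 groups, and with LPS it had 36.3 and 37.5 CPM in GM-TC-LPS, 37.3 and 36.1 CPM in GM-noTC-LPS, 49.4 and 49.6 CPM in M-TC-LPS, and 45.3 and 44.3 CPM in M-noTC-LPS. All LPS libraries were again above all vehicle libraries, and the M ones were highest. The change was 0.58 ± 0.073 in GM-TC (adjusted p = 3.2e-07), 0.44 ± 0.071 in GM-noTC (adjusted p = 1.2e-05), 0.99 ± 0.070 in M-TC (adjusted p = 1.9e-11) and 0.76 ± 0.068 in M-noTC (adjusted p = 1.2e-09). By library size the Tirap change in GM-noTC turned to -0.071 (adjusted p = 0.37), and those in GM-TC and M-noTC were 0.10 (adjusted p = 0.2) and 0.036 (adjusted p = 0.64).

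Irak2, a kinase-like subunit that sustains the late response, had 70.3 and 68.3 CPM in GM-TC, 71.3 and 70.3 CPM in GM-noTC, 49.4 and 50.2 CPM in M-TC, and 47.9 and 49.6 CPM in M-noTC. With LPS it had 211 and 215 CPM in GM-TC-LPS, 216 and 217 CPM in GM-noTC-LPS, 446 and 429 CPM in M-TC-LPS, and 353 and 372 CPM in M-noTC-LPS. The order of growth factors thus turned: every GM library was above every M library at steady state and below every M library after LPS. The rise was 1.62 ± 0.052 in GM-TC (3.07-fold, adjusted p = 1.7e-17) and 1.61 ± 0.052 in GM-noTC (3.05-fold, adjusted p = 1.5e-17). It was 3.13 ± 0.054 in M-TC (8.78-fold, adjusted p = 1.6e-22) and 2.89 ± 0.053 in M-noTC (7.43-fold, adjusted p = 4.9e-22), the largest change among the 10 genes in either M comparison.

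Irak3, the inhibitory family member, had 28.9 and 27.7 CPM in GM-TC, 27.8 and 29.3 CPM in GM-noTC, 43.0 and 42.5 CPM in M-TC, and 33.3 and 37.3 CPM in M-noTC. With LPS it had 147 and 159.9 CPM in GM-TC-LPS, 159 and 163 CPM in GM-noTC-LPS, 215 and 195 CPM in M-TC-LPS, and 119 and 129 CPM in M-noTC-LPS. M-noTC-LPS was the lowest of the LPS groups, below both GM groups, although its vehicle libraries lay above theirs. The change was 2.44 ± 0.073 in GM-TC (5.43-fold, adjusted p = 4.7e-18), 2.49 ± 0.072 in GM-noTC (5.62-fold, adjusted p = 2.4e-18), 2.26 ± 0.069 in M-TC (4.79-fold, adjusted p = 4.2e-18) and 1.81 ± 0.069 in M-noTC (3.497-fold, adjusted p = 2.8e-16). Irak4, the kinase that starts the cascade, went the other way. Its 8 vehicle libraries had 28.0 to 38.2 CPM and its 8 LPS libraries 16.96 to 22.7 CPM, without overlap. The change lay between -0.51 ± 0.094 in GM-noTC (adjusted p = 5.4e-05) and -0.69 ± 0.094 in M-TC (adjusted p = 8.4e-07), and by library size between -1.02 in GM-noTC and -1.52 in M-TC. Irak4 overlaps Twf1 on the opposite strand by 395 bases and held a value that was not whole in all 16 libraries, so that its counts could include reads shared with it.

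Ticam2 and Ticam1, the adaptors of the endosomal branch, had log2 fold changes between -0.50 and 0.58 with TMM scaling. Ticam2 had 64.1 and 62.2 CPM in GM-TC, 58.9 and 60.3 CPM in GM-noTC, 45.2 and 48.2 CPM in M-TC, and 35.2 and 36.9 CPM in M-noTC. With LPS it had 44.3 and 44.7 CPM in GM-TC-LPS, 45.0 and 41.7 CPM in GM-noTC-LPS, 54.1 and 55.0 CPM in M-TC-LPS, and 46.9 and 47.2 CPM in M-noTC-LPS. It thus fell in GM cells and rose in M cells, with no overlap within any pair. The change was -0.50 ± 0.061 in GM-TC (adjusted p = 2.2e-07), -0.46 ± 0.061 in GM-noTC (adjusted p = 7.5e-07), 0.22 ± 0.061 in M-TC (adjusted p = 0.0024) and 0.38 ± 0.062 in M-noTC (adjusted p = 9.1e-06). By library size both M values turned negative, to -0.60 (adjusted p = 1.1e-08) and -0.34 (adjusted p = 3.4e-05), and the GM values were -0.99 and -0.97, so that Ticam2 then fell in all 4 backgrounds. Ticam2 shares 838 bases of exons with Tmed7 on the same strand and was not whole in 10 of 16 libraries, so reads of the 2 genes may have been split in the counting. Tmed7, named for this overlap, rose in GM-TC (0.32), GM-noTC (0.39), M-TC (0.64) and M-noTC (0.53).

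Ticam1 had 33.9 and 34.6 CPM in GM-TC, 38.2 and 35.0 CPM in GM-noTC, 26.0 and 24.0 CPM in M-TC, and 25.2 and 25.1 CPM in M-noTC. With LPS it had 38.0 and 36.7 CPM in GM-TC-LPS, 33.1 and 38.5 CPM in GM-noTC-LPS, 39.5 and 35.0 CPM in M-TC-LPS, and 29.3 and 29.6 CPM in M-noTC-LPS. The M libraries moved up without overlap, whereas GM-noTC and GM-noTC-LPS overlapped. The change in GM-TC was 0.12 ± 0.080 (95% interval -0.04 to 0.29, adjusted p = 0.18) and in GM-noTC -0.03 ± 0.078 (95% interval -0.19 to 0.13, adjusted p = 0.73). In M-TC it was 0.58 ± 0.082 (adjusted p = 1.5e-06) and in M-noTC 0.23 ± 0.081 (adjusted p = 0.017), both called. By library size Ticam1 fell in all 4 backgrounds, by -0.36 in GM-TC (adjusted p = 4e-04), -0.54 in GM-noTC (adjusted p = 2.5e-06), -0.25 in M-TC (adjusted p = 0.0085) and -0.50 in M-noTC (adjusted p = 8.7e-06). In the 4 fits that left out 1 library of the M-noTC comparison, the Ticam1 value was 0.22 to 0.24. Its call was lost in most of them.

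**Figure D2:**
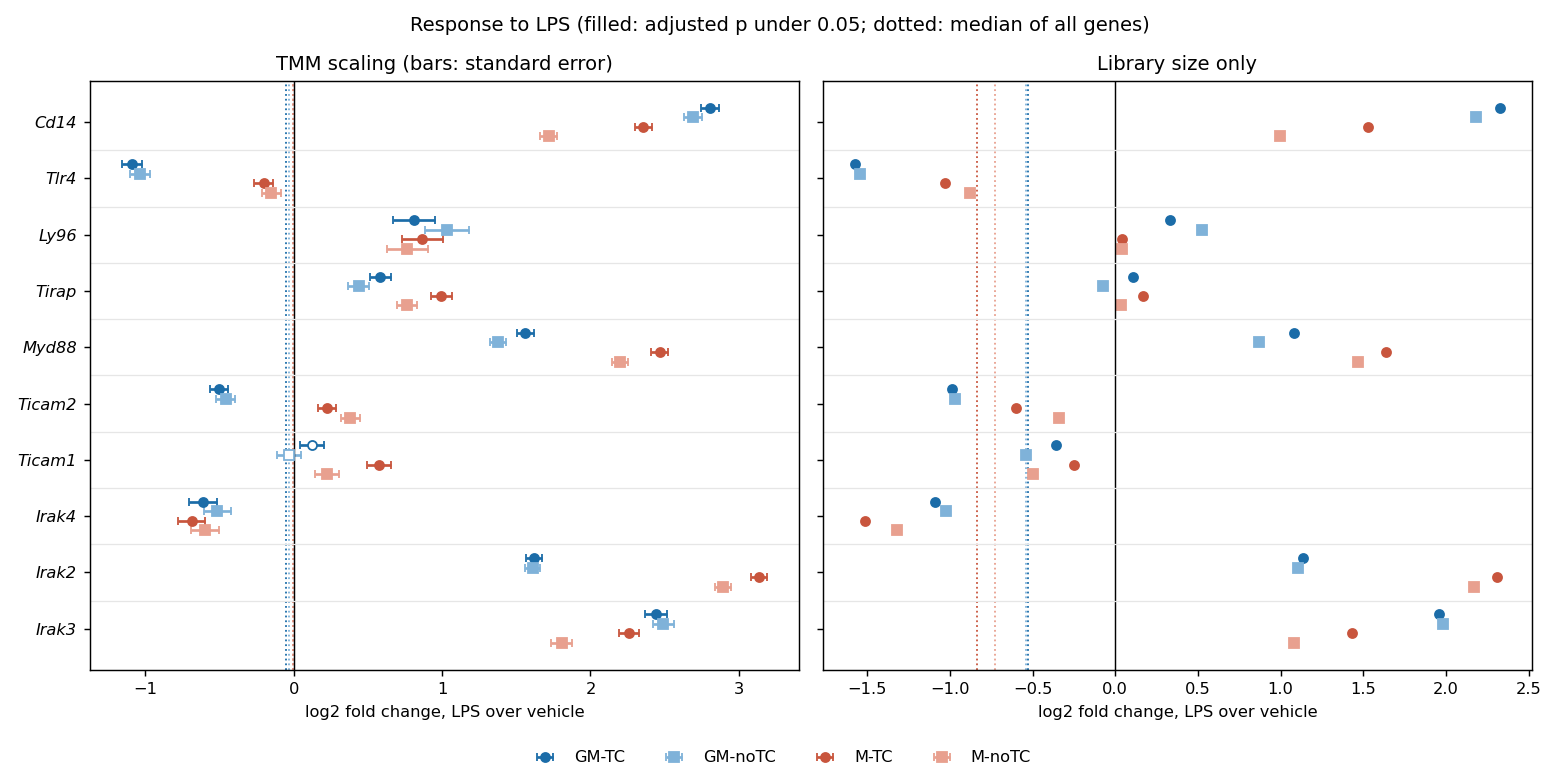
Log2 fold change of the 10 genes upon LPS challenge on both dishes in GM (blue) and M (red) cells, with TMM scaling and standard errors on the left (filled where the adjusted p is under 0.05) and with library size scaling on the right; dotted lines give the median of all genes. Cd14, Myd88, Irak2 and Irak3 lie to the right of 0 in both panels, whereas Ticam2 and Ticam1 in M cells lie right of 0 on the left panel and left of 0 on the right panel, where both also lie left of 0 in GM cells.

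The responses of GM and M cells were then compared by the interaction of growth factor and LPS, the log2 fold change in GM minus that in M. It was called for 7 of the 10 genes on TC and 7 on noTC, where 41.1% and 36.2% of all tested genes were called. Irak2 had the largest value, -1.52 ± 0.073 on TC (adjusted p = 3.1e-13) and -1.28 ± 0.072 on noTC (adjusted p = 5e-12), a weaker rise in GM cells. Myd88 gave -0.90 ± 0.076 (adjusted p = 2.7e-09) and -0.82 ± 0.075 (adjusted p = 1.1e-08), also a weaker rise in GM cells. Tlr4 gave -0.89 ± 0.093 (adjusted p = 6.7e-08) and -0.88 ± 0.092 (adjusted p = 8.5e-08), a stronger fall in GM cells.

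Ticam2 differed by -0.73 ± 0.087 on TC (adjusted p = 4.8e-07) and -0.84 ± 0.087 on noTC (adjusted p = 6.9e-08). Cd14 went the opposite way, with a larger rise in GM cells by 0.45 ± 0.081 on TC (adjusted p = 0.0001) and 0.97 ± 0.080 on noTC (adjusted p = 2.3e-09). Irak3 was called on noTC at 0.69 ± 0.099 (adjusted p = 8e-06) and not on TC, at 0.18 ± 0.10 (adjusted p = 0.16). Irak2, Myd88, Tlr4, Ticam2, Cd14 and Irak3 kept the sign of their values by library size, where Irak3 (0.53, adjusted p = 0.00017) and Irak4 (0.42, adjusted p = 0.014) were also called on TC and the median of all genes was 0.30. Tirap differed by -0.41 ± 0.10 on TC (adjusted p = 0.0024) and -0.32 ± 0.098 on noTC (adjusted p = 0.012), and Ticam1 by -0.46 ± 0.11 on TC (adjusted p = 0.0027) and -0.26 ± 0.11 on noTC (adjusted p = 0.081). By library size Tirap (-0.063 and -0.11) and Ticam1 on TC (-0.11) were not called, and Tirap on noTC lost the call without GM-noTC replicate 1 (adjusted p = 0.05) or M-noTC replicate 2 (adjusted p = 0.081). For Ly96 the difference was -0.06 on TC (95% interval -0.48 to 0.36) and 0.27 on noTC (95% interval -0.15 to 0.69), and for Irak4 it was 0.08 on both dishes (95% intervals -0.20 to 0.36), so that differences of these sizes were not detectable in this fit. The sums of the neutrophil and of the dendritic markers were higher in the GM libraries, as given above, though not every dendritic marker was. Their part in these differences was not tested.

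At steady state, the LPS co-receptor separated the growth factors most. Cd14 was 2.56-fold lower in GM-TC than in M-TC (-1.36 ± 0.059, adjusted p = 6.4e-15) and 2.96-fold lower in GM-noTC than in M-noTC (-1.56 ± 0.058, adjusted p = 4e-16). On TC, 3 of the 10 genes were higher in GM (Ticam2, Ticam1 and Irak2) and 4 lower (Cd14, Myd88, Irak4 and Irak3), where 32.6% and 28.9% of all genes were higher and lower. On noTC, 4 were higher (Tlr4, Ticam2, Ticam1 and Irak2) and 2 lower (Cd14 and Irak3), where 31.4% and 30.7% of all genes were. By library size the split was 1 up and 6 down on TC and 3 up and 6 down on noTC, where 19.6% and 19.7% of all genes were higher and 50.8% and 52.1% lower. The 2 endosomal adaptors, Irak2 and Irak3 kept the signs given here on both dishes under that scaling, whereas Tlr4 turned, and on TC Ticam2 (0.12, adjusted p = 0.081) and Ticam1 (0.14, adjusted p = 0.13) were then not called. It also gave called lower values in GM for Tirap on TC (-0.33, adjusted p = 0.00064) and, on noTC, for Ly96 (-0.61, adjusted p = 0.00094), Tirap (-0.25, adjusted p = 0.0031), Myd88 (-0.27, adjusted p = 0.00013) and Irak4 (-0.23, adjusted p = 0.025), the last 3 turned from 0.04, 0.02 and 0.06.

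Ticam2 was higher in GM cells by 0.43 ± 0.060 on TC (adjusted p = 1.6e-06) and 0.72 ± 0.059 on noTC (adjusted p = 4.2e-10), and Ticam1 by 0.45 ± 0.081 (adjusted p = 4.5e-05) and 0.54 ± 0.077 (adjusted p = 2.5e-06). Irak2 was higher by 0.48 ± 0.055 (adjusted p = 1.1e-07) and 0.54 ± 0.053 (adjusted p = 9.3e-09). The inhibitor Irak3 was lower in GM cells by -0.60 ± 0.076 on TC (adjusted p = 5.6e-07) and -0.31 ± 0.074 on noTC (adjusted p = 0.0011). Tlr4 itself differed by 0.02 ± 0.064 on TC (95% interval -0.11 to 0.15, adjusted p = 0.81) and by 0.21 ± 0.064 on noTC (adjusted p = 0.0057), but by library size these values were -0.29 and -0.077. The noTC value for Tlr4 was not called without GM-noTC replicate 2 (adjusted p = 0.053). Myd88 (-0.16, adjusted p = 0.021) and Irak4 (-0.24, adjusted p = 0.023) on TC each lost the call without GM-TC replicate 1 (adjusted p = 0.11 and 0.064) and without M-TC replicate 2 (adjusted p = 0.067 and 0.21), and Myd88 also when only the libraries of the comparison were fitted (adjusted p = 0.094).

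After LPS, Cd14, Tlr4, Tirap, Myd88 and Irak2 were lower in GM than in M cells on both dishes. On TC, none of the 10 genes was higher in GM (edgeR, also 0 at an unadjusted p under 0.05 and 0 by DESeq2) and 7 were lower, where 33.9% and 32.9% of all genes were higher and lower. On noTC, 2 were higher (Ticam1 and Irak3) and 5 lower (Cd14, Tlr4, Tirap, Myd88 and Irak2), where 33.5% and 32.6% of all genes were. Myd88 was lower by -1.06 ± 0.052 on TC (2.08-fold, adjusted p = 5e-14) and -0.80 ± 0.052 on noTC (1.74-fold, adjusted p = 6.8e-12). Irak2 was lower by -1.04 ± 0.049 (2.06-fold, adjusted p = 2.6e-14) and -0.74 ± 0.049 (1.68-fold, adjusted p = 9e-12). Tlr4 was lower by -0.87 ± 0.067 (1.83-fold, adjusted p = 1.4e-10) and -0.67 ± 0.067 (1.59-fold, adjusted p = 1.1e-08).

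The gap in Cd14 after LPS was -0.91 ± 0.056 on TC (1.87-fold, adjusted p = 3.5e-12) and -0.59 ± 0.056 on noTC (1.51-fold, adjusted p = 4.6e-09). Irak3 differed in direction between the dishes, at -0.42 ± 0.064 on TC (adjusted p = 6.4e-06) and 0.38 ± 0.065 on noTC (adjusted p = 2.6e-05), following the low values of M-noTC-LPS. Tirap was lower by -0.42 ± 0.069 (adjusted p = 1.4e-05) and -0.29 ± 0.069 (adjusted p = 0.00093). Ticam2 was lower on TC by -0.29 ± 0.063 (adjusted p = 0.0003) and gave -0.12 ± 0.063 on noTC (adjusted p = 0.11). Ticam1 was higher on noTC by 0.28 ± 0.082 (adjusted p = 0.0045), a call lost without GM-noTC-LPS replicate 2 (adjusted p = 0.13). Ly96 differed by -0.03 on TC (95% interval -0.31 to 0.25) and -0.05 on noTC (95% interval -0.34 to 0.23).

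**Figure D3:**
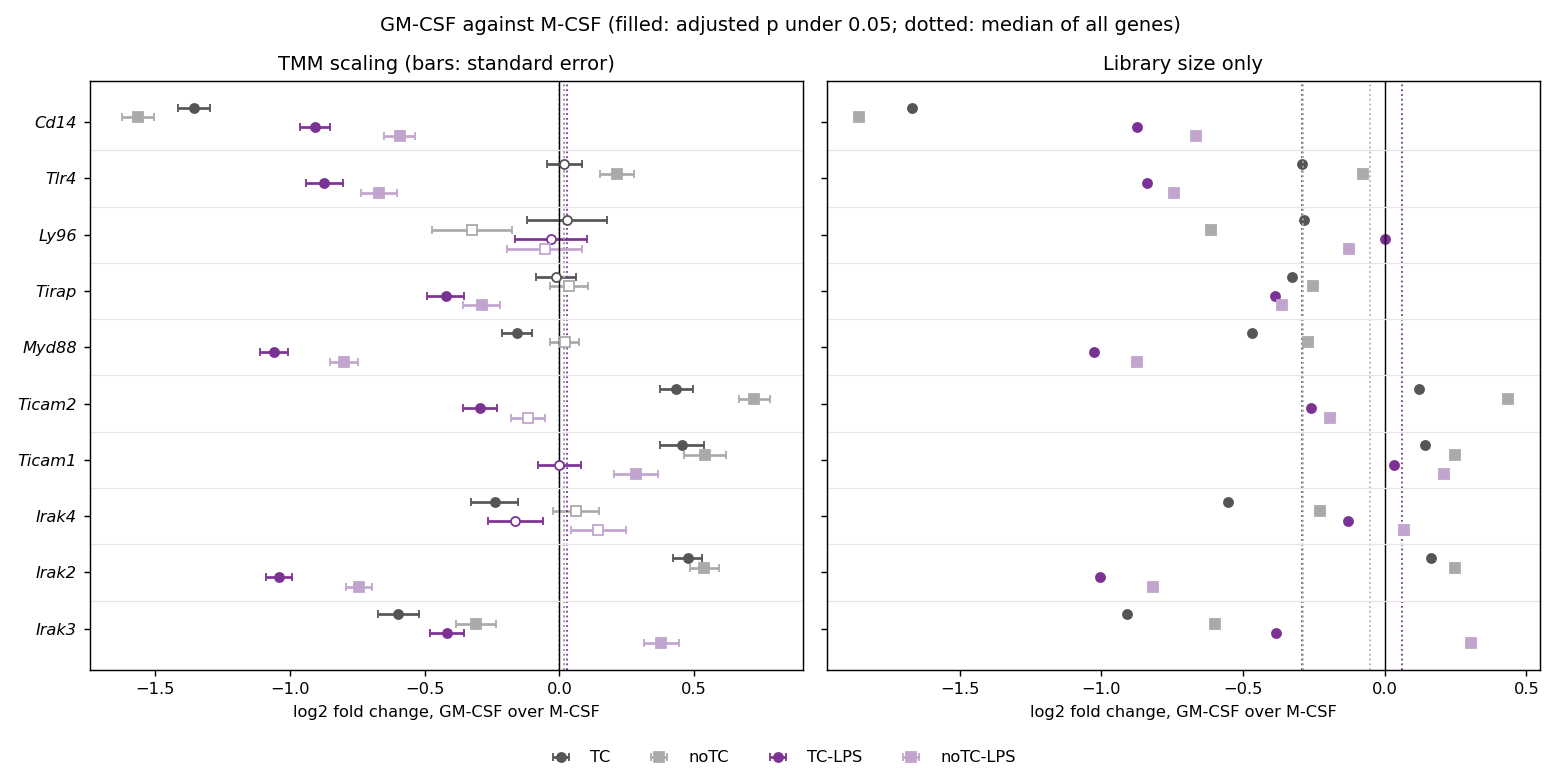
Log2 fold change of the 10 genes in GM cells comparing with M cells on TC and noTC dishes at steady state (gray) and after LPS (purple), with TMM scaling and standard errors on the left (filled where the adjusted p is under 0.05) and library size scaling on the right; dotted lines give the median of all genes. Cd14 lies left of 0 in all 4 conditions under both scalings, and Irak2 lies right of 0 at steady state and left of 0 after LPS under both.

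In GM cells none of the 10 genes was called for the dish at the adjusted threshold. Few of all tested genes were called either, so this does not set the 10 apart. At steady state edgeR called 0 of 10 (3 at an unadjusted p under 0.05, and 1, Cd14, by DESeq2), where 4.69% of all genes were higher and 2.85% lower on noTC. With LPS it called 0 of 10 (0 at an unadjusted p under 0.05 and 0 by DESeq2), where 2.08% were higher and 0.727% lower. Ly96 and Cd14 were closest at steady state. Cd14 gave 0.18 ± 0.059 (95% interval 0.06 to 0.31, adjusted p = 0.063). Alternatives that called Cd14 were a replicate block (adjusted p = 0.034), DESeq2 (adjusted p = 0.029) and DESeq2's size factors (adjusted p = 0.037). Cd14 was also called by library size (adjusted p = 0.032) and without the filter (adjusted p = 0.018). Without GM-TC replicate 2 its value was 0.28 (adjusted p = 0.0028) and Myd88 was also called (0.21, adjusted p = 0.041). Ly96 gave -0.49 ± 0.16 (95% interval -0.82 to -0.17, adjusted p = 0.06) and was called without the filter (adjusted p = 0.036). For the 8 genes other than these, the 95% intervals of the dish difference in GM cells lay within -0.23 and 0.29 in both states, and Ly96 with LPS had an interval of -0.55 to 0.02.

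In M cells 5 of the 10 genes were called for the dish at steady state and 6 after LPS, and whether the dish effect differed between M and GM cells was not tested. At steady state Cd14 was higher on noTC by 0.39 ± 0.057 (1.31-fold, adjusted p = 1.6e-05), where 16.1% of all genes were higher. In contrast, 4 genes were lower, where 11.1% of all genes were lower: Ticam2 by -0.37 ± 0.060 (adjusted p = 6.2e-05), Irak4 by -0.33 ± 0.085 (adjusted p = 0.0063), Irak3 by -0.27 ± 0.072 (adjusted p = 0.0066) and Tlr4 by -0.19 ± 0.064 (adjusted p = 0.034). In each of these 5 genes the 2 libraries of a dish did not overlap with those of the other. The same held for Myd88, which was not called, and so for 6 of the 10 genes in all. It also held for 7 of the 10 in GM cells at steady state, where 0 were called. Lack of overlap between 2 and 2 libraries thus did not set the called genes apart. The share of all tested genes without overlap was not computed, so these counts say nothing particular about the 10. Cd14 and Ticam2 stayed called whichever of the 4 libraries was left out. Tlr4 lost the call in all 4 such fits (adjusted p = 0.12 to 0.13), Irak4 without M-TC replicate 2 (adjusted p = 0.13) or M-noTC replicate 1 (adjusted p = 0.063), and Irak3 without M-noTC replicate 1 (adjusted p = 0.12). Heart muscle markers were 43.3 and 71.6 CPM in M-TC and at most 0.187 CPM in M-noTC, and their part in these differences was not tested.

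After LPS none of the 10 was higher on noTC in M cells (edgeR, also 0 at an unadjusted p under 0.05 and 0 by DESeq2), where 10.4% of all genes were higher, and 6 were lower, where 12.9% were. By library size 0 were higher and 5 lower, where 16.8% and 7.03% of all genes were. Irak3 had the largest difference, at -0.73 ± 0.065 (1.65-fold lower, adjusted p = 4.2e-08). Myd88 was lower by -0.30 ± 0.051 (adjusted p = 0.00014), Irak2 by -0.27 ± 0.048 (adjusted p = 0.00025) and Cd14 by -0.25 ± 0.056 (adjusted p = 0.0027), so that the higher Cd14 level of M-noTC at steady state was not seen after LPS. Ticam1 was lower by -0.34 ± 0.083 (adjusted p = 0.0042) and Ticam2 by -0.21 ± 0.063 (adjusted p = 0.016). The Ticam2 call was lost with any of the 4 libraries left out (adjusted p = 0.055 to 0.089), that of Ticam1 without M-TC-LPS replicate 1 (adjusted p = 0.1) and that of Cd14 without M-noTC-LPS replicate 1 (adjusted p = 0.063).

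**Figure D4:**
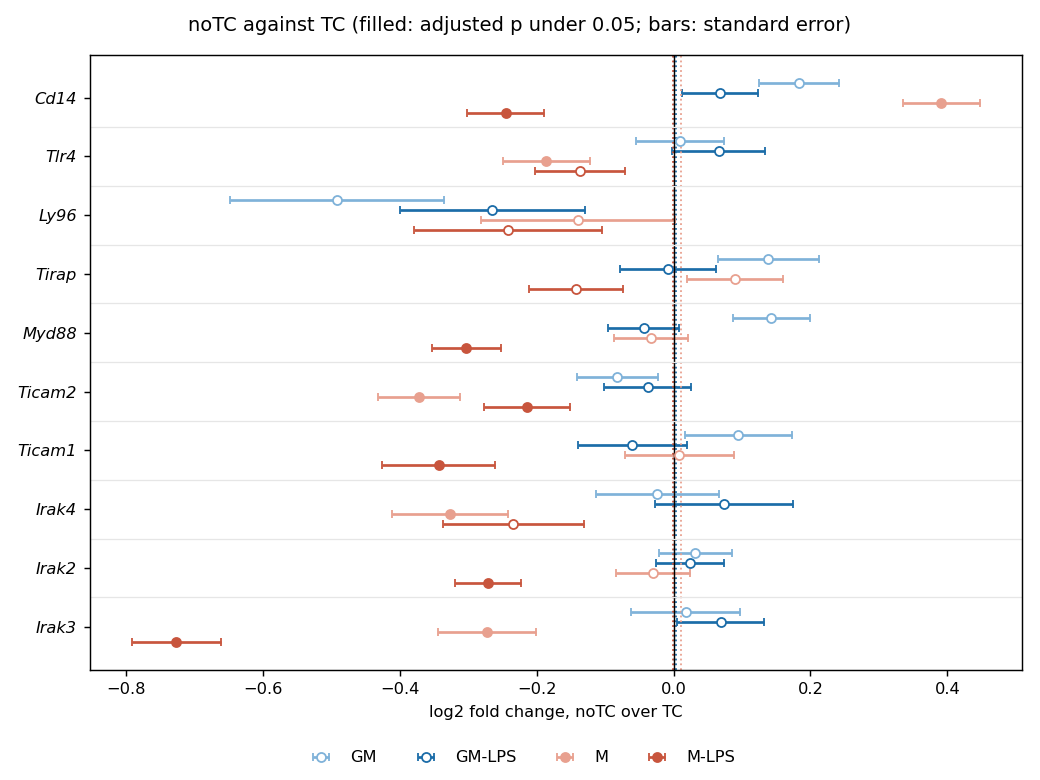
Log2 fold change of the 10 genes on noTC comparing with TC dishes, with standard errors, in GM and M cells at steady state and after LPS; filled points have an adjusted p under 0.05 and dotted lines give the median of all genes. All filled points are from M cells, with Cd14 at 0.39 at steady state and Irak3 at -0.73 after LPS at the 2 ends.

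Whether the dish altered the response to LPS was tested with the interaction of dish and LPS, the log2 fold change on noTC minus that on TC. In GM cells it was called for 0 of 10 genes by edgeR (1 at an unadjusted p under 0.05, 0 by DESeq2), where 0.783% of all genes were called. In M cells it was called for 4, all weaker rises on noTC, where 10.6% of all genes were called. Cd14 gave -0.64 ± 0.079 (adjusted p = 1.2e-05) and Irak3 -0.45 ± 0.096 (adjusted p = 0.0035). Myd88 gave -0.27 ± 0.075 (adjusted p = 0.022) and Irak2 -0.24 ± 0.072 (adjusted p = 0.035). Of these, Cd14 kept the call in all 8 fits that left out 1 library, Irak3 lost it without M-noTC replicate 2 (adjusted p = 0.059), Myd88 lost it in 7 and Irak2 in 6. Both Myd88 (-0.17, adjusted p = 0.16) and Irak2 (-0.14, adjusted p = 0.25) were also not called by library size, and Irak2 not without the filter (adjusted p = 0.08) or with only the M libraries fitted (adjusted p = 0.056).

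Other genes of the pathway were followed in 4 lists. Of 18 genes of the MyD88 arm, 10 rose and 3 fell upon LPS challenge in GM-TC and in GM-noTC, 13 rose and 3 fell in M-TC, and 14 rose and 3 fell in M-noTC, with median log2 fold changes of 0.31, 0.28, 0.55 and 0.50. Among all tested genes 32.8%, 33.6%, 37.6% and 36.4% rose and 34.2%, 34%, 36.4% and 35.9% fell, with medians of -0.05, -0.03, -0.01 and -0.01. By library size 6 of the MyD88 arm rose and 10 or 11 fell in each, where 16.1% to 17.2% of all genes rose and 62.7% to 69.1% fell. Peli1, a ubiquitin ligase of IRAK complexes, rose from 22.6 to 493 CPM in GM-TC and from 42.6 to 1029.9 CPM in M-TC. Rnf31, the catalytic subunit of the linear ubiquitin ligase, rose by 2.68 and 2.67 in GM-TC and GM-noTC and by 3.05 and 2.62 in M-TC and M-noTC. Map3k8, the kinase upstream of ERK, rose by 2.59, 2.70, 2.75 and 2.85 in the same order of groups. Peli1 was also lower in GM than in M cells in all 4 conditions, by -0.65 to -1.06, while its relative Peli2 was higher, by 0.38 to 2.44.

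Of 13 genes of the TRIF arm, 7 rose in each background and 2 and 3 fell in GM-TC and GM-noTC and 4 and 5 in M-TC and M-noTC, with medians of 0.45, 0.31, 0.33 and 0.35, where 32.8% to 37.6% of all genes rose and 34% to 36.4% fell. The share of the list that fell in M cells was thus near that of all genes. By library size 6 rose in each and 6, 7, 7 and 7 fell, where 16.1% to 17.2% and 62.7% to 69.1% of all genes did. Irf7, the interferon regulatory factor that amplifies type I interferon, rose from 4.02 to 251 CPM in GM-TC and from 73.7 to 880.1 CPM in M-TC, and was lower in GM cells in all 4 conditions, by -1.72 to -4.16. Zbp1, a nucleic acid sensor, rose by 3.74, 3.71, 3.26 and 3.03, and Tank, a scaffold of TBK1, by 2.48, 2.54, 2.59 and 2.44, in the same order of groups. Ripk3, the necroptosis kinase, was higher in GM cells by 1.11 to 1.95.

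Of 13 genes of LPS delivery, chaperones and trafficking, 11 rose in GM-TC and 10 in each of the others, and 2 fell in each, with medians of 0.34, 0.39, 0.49 and 0.39 (0.56 and 0.46 in M-TC and M-noTC without Lbp, which had few counts there). Of all genes 32.8% to 37.6% rose and 34% to 36.4% fell. By library size 3, 5, 4 and 4 of the list rose and 7, 6, 7 and 7 fell, against 16.1% to 17.2% and 62.7% to 69.1% of all genes. Rab7b, a small GTPase that directs TLR4 to lysosomes, fell from 127 to 13.2 CPM in GM-TC and from 159 to 11.2 CPM in M-noTC. Syk, a kinase in the uptake of the receptor with CD14, rose by 1.31 to 1.73. Scimp, a transmembrane adaptor that binds TLR4, rose by 0.61 and 0.53 in GM-TC and GM-noTC and by 3.60 and 3.10 in M-TC and M-noTC, from 25.3 CPM in GM-TC and from 0.552 CPM in M-TC. Lbp, the serum protein that delivers LPS, had 0.701, 0.485, 1.69 and 2.12 CPM in GM-TC, GM-noTC, GM-TC-LPS and GM-noTC-LPS and at most 0.127 CPM in the M groups, where it was near the floor of 3 counts per library (0.0954 to 0.171 CPM).

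Among 18 inhibitors, 17 of them tested, 10, 10, 11 and 10 rose and 4 fell in each, with medians of 0.67, 0.43, 0.57 and 0.58, beside 32.8% to 37.6% of all genes that rose and 34% to 36.4% that fell. By library size 8, 7, 7 and 7 rose and 6, 6, 10 and 8 fell, beside 16.1% to 17.2% and 62.7% to 69.1% of all genes. Tnfaip3 (A20), the deubiquitinase that ends NF-kB signaling, rose from 24.8 to 1127 CPM in GM-TC and from 35.7 to 2123 CPM in M-TC. Socs1, an inhibitor of cytokine and TLR signaling, rose by 3.53 and 3.59 in GM-TC and GM-noTC and by 6.81 and 7.02 in M-TC and M-noTC, from 5.34 CPM in GM-TC and from 1.01 CPM in M-TC. Zc3h12a (Regnase-1), an RNase that degrades cytokine mRNA, rose by 4.002, 3.98, 3.09 and 2.77. Cd180, a relative of TLR4 that restrains it, was lower in GM cells in all 4 conditions, by -1.75 to -1.99. Sarm1 had at most 0.825 CPM in M groups and was at or under the floor in the GM groups.

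**Figure D5:**
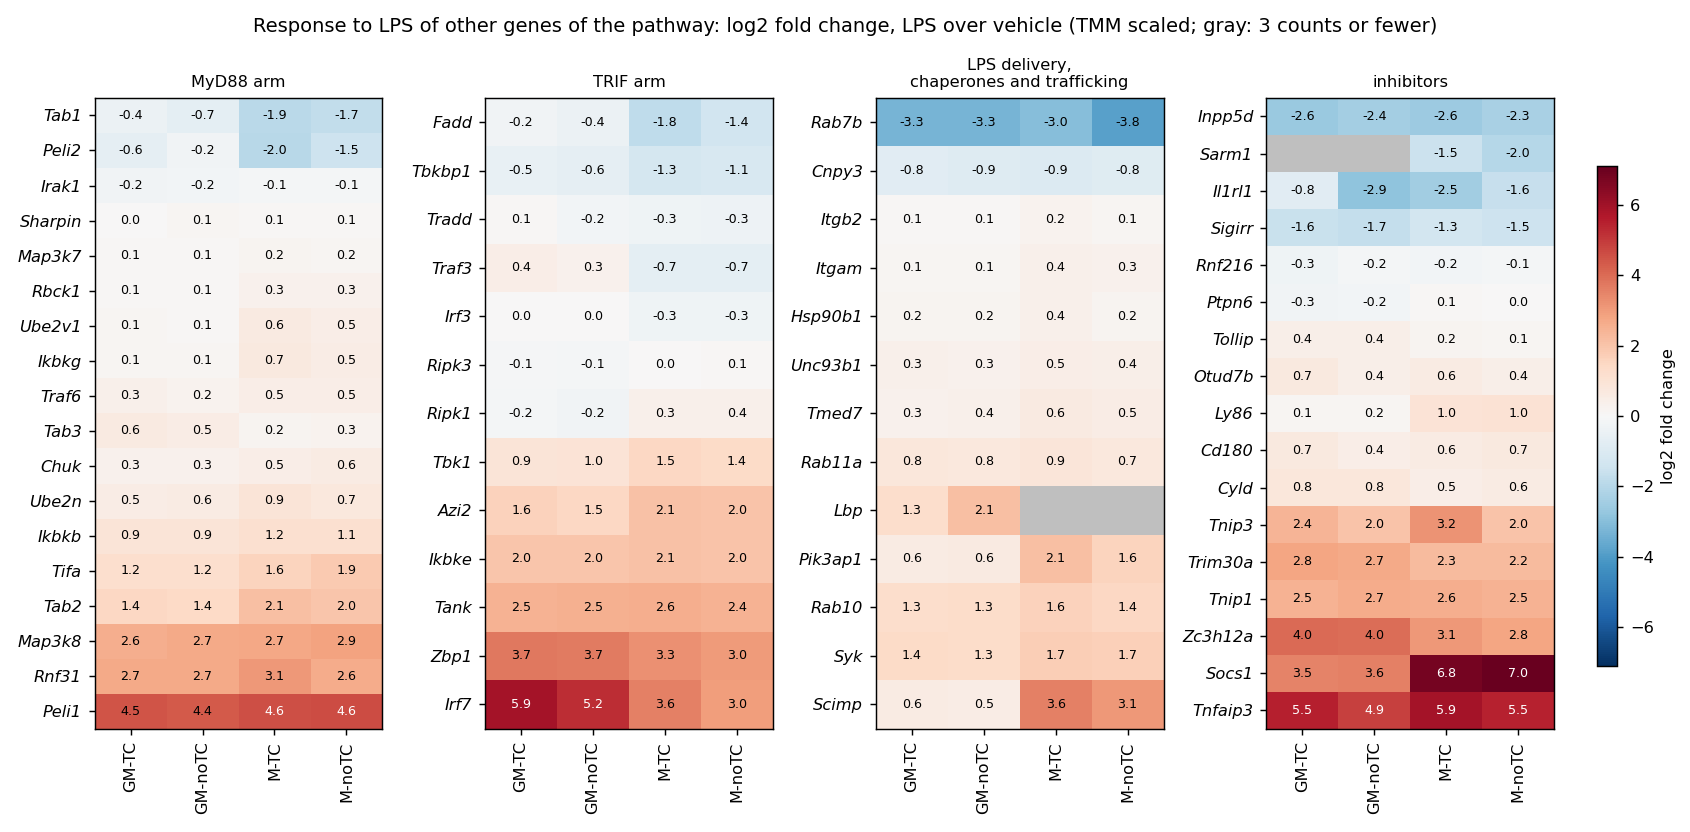
Log2 fold change upon LPS challenge of the tested genes of the 4 lists (rows, ordered by their mean) in the 4 backgrounds (columns), red for higher and blue for lower, with the value in each cell; gray cells mark a group with a mean of 3 counts or fewer. Peli1, Irf7, Tnfaip3 and Socs1 are among the deepest red and Rab7b is blue in all 4 columns.

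For 4 of the genes, those with the most similar pattern were sought by Pearson's r of log2 CPM over the 16 libraries, among 7826 or 7827 genes at a mean of 10 CPM or more. The libraries fall into the same 8 groups, so r describes a shared pattern over groups. Tlr4 was most like Ranbp9 (r = 0.977), Nqo2 (r = 0.957) and Cd93 (r = 0.955). Cd14 was most like Marcksl1 (r = 0.996), Agrn (r = 0.996) and Tgtp2 (r = 0.996). Ly96 was most like Srfbp1 (r = 0.965), Tmem140 (r = 0.960) and Anxa5 (r = 0.957), and Irak3 most like Surf4 (r = 0.997), Mier3 (r = 0.993) and Nfkb2 (r = 0.991).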

How the data were processed

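Gene expression was measured by RNA-seq in 16 BMDM libraries, 2 for each of 8 groups. The authors enriched mRNA with oligo(dT) beads, aligned clean reads with HISAT2 and ran RSEM for quantification. The deposited table gives expected counts (RSEM estimates by the authors) for 22287 genes, without normalization. The genome build, annotation and use of strand in the counting are not given in the sources used here. Values (6.56% to 8.19% of genes per library not whole) were rounded. Groups and replicates followed the sample labels. Nothing in the labels ties replicates to separate animals, so p-values measure the spread between these libraries. That spread was estimated for all 8 groups together. The 2 GM-TC libraries differed most from each other, with a chi-square against counting noise of 13.7 per gene. The other groups had 1.95 to 5.56. A shared spread can therefore understate the error in comparisons with GM-TC. Genes were filtered by edgeR's expression filter, scaled with TMM factors and tested in 1 quasi-likelihood fit over the 8 groups (edgeR 4.0.16, R 4.3.3, no replicate block), with BH adjustment over 12514 genes and a threshold of 0.05. The tests were first checked on counts simulated with the same spread in every group. That check cannot speak to the wider spread between the GM-TC libraries. CPM of members are TMM scaled and those of cell type markers are scaled by library size. A count of 3 is the floor, and intervals cover 95%. Reported are the 10 genes, from each list the 3 genes with the largest mean change over the LPS comparisons and the 2 over the growth factor comparisons among those called in all 4, and the 3 nearest genes of Tlr4, Cd14, Ly96 and Irak3. Members and lists were chosen with earlier results of these data known. The alternatives were DESeq2's size factors, library size only, no filter, the libraries of a comparison only, DESeq2 1.42.0, a replicate block, the rule of a fold change above 2 with an unadjusted p under 0.05, removal from GM-noTC and M-noTC of a share of reads seen in other groups, and leaving out each library. When a library was left out, the remaining library of its group was assumed to vary like the other groups. A crossed block was added after seeing the data.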

Additional observations from a re-analysis of the deposited data

Results flagged for a closer look

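The response to LPS differed between GM and M cells for 7 of the 10 genes on each dish by a test of the difference itself (edgeR, adjusted p under 0.05), where 41.1% of all tested genes differed on TC and 36.2% on noTC. Given as log2 fold change in GM minus that in M, the values on TC were -1.52 for Irak2, -0.90 for Myd88, -0.89 for Tlr4, -0.73 for Ticam2, -0.46 for Ticam1, -0.41 for Tirap and 0.45 for Cd14. On noTC they were -1.28 for Irak2, -0.82 for Myd88, -0.88 for Tlr4, -0.84 for Ticam2, -0.32 for Tirap, 0.97 for Cd14 and 0.69 for Irak3. The response also differed between dishes in M cells, as noTC minus TC, by -0.64 for Cd14, -0.45 for Irak3, -0.27 for Myd88 and -0.24 for Irak2, where 10.6% of all genes differed. The call was lost for Myd88 in 7 and for Irak2 in 6 of the 8 fits that left out 1 library, for both by library size, and for Irak3 without M-noTC replicate 2 (adjusted p = 0.059). By library size Tirap on both dishes and Ticam1 on TC were not called for the difference between GM and M cells.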

How the results depend on the processing

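Of 160 values (10 genes in 16 comparisons), 94 were called, and 17 of these calls were lost and 6 others gained in at least 1 fit that left out a library. Among values called in the edgeR fit described above or in the alternative, library size scaling was the only alternative that reversed a direction. Values that were called in neither also changed sign with a library left out, such as Tlr4 for GM against M on TC (-0.11 to 0.12) and Ticam1 upon LPS challenge in GM-noTC (-0.15 to 0.073). Library size gave -0.36 for Ticam1 upon LPS challenge in GM-TC, -0.071 for Tirap in GM-noTC, -0.60 for Ticam2 and -0.25 for Ticam1 in M-TC, and -0.34 for Ticam2 and -0.50 for Ticam1 in M-noTC. For GM against M at steady state it gave -0.29 for Tlr4 on TC and, on noTC, -0.077 for Tlr4, -0.25 for Tirap, -0.27 for Myd88 and -0.23 for Irak4. With a fold change above 2 and an unadjusted p under 0.05, the genes called upon LPS challenge were 4 in place of 10 on each dish in M cells, and in place of 9 they were 5 on TC and 6 on noTC in GM cells. That rule called 1, 1, 2 and 0 genes for GM against M on TC, noTC, TC with LPS and noTC with LPS, 0 and 0 for the dish in M cells at steady state and with LPS, 1 and 1 for growth factor by LPS on TC and noTC, and 0 for dish by LPS in M cells. The shares of all tested genes under that rule were not computed. Its counts therefore show only how the calls of the 10 depend on the threshold. For the dish in GM cells at steady state, where 0 were called, DESeq2's size factors, library size, DESeq2 and the replicate block each gave 1, and no filter gave 2 (Cd14 and Ly96). For dish by LPS in M cells library size gave 2. With 1 library left out, the counts were 0 to 2 for the dish in GM cells, 2 to 4 for the dish in M cells and 1 to 5 for dish by LPS in M cells. Same-numbered replicates were not paired by the labels, and the correlation of their deviations lay between -0.117 and 0.140 over the 12 comparisons. The replicate block changed the call of Cd14 for the dish in GM cells and no other. A crossed block, with the numbers of M-noTC-LPS exchanged, called 10 genes upon LPS challenge in M-noTC and 7 for GM against M on noTC with LPS. Subtraction of an estimated 0.675% (GM) and 0.600% (M) of other libraries' reads changed only the call of Irak2 for dish by LPS in M cells (adjusted p = 0.062). Groups of 2 limit what could be detected, most of all for Ly96, with 98 to 233 counts per library.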
